A study of Homo sapiens with 9 samples.

Results

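This section describes the 102 genes of chromosome 1 that make 5S ribosomal RNA or transfer RNA (tRNA): the 17 genes named RNA5S1 to RNA5S17, and the 85 nuclear tRNA genes that the RefSeq gene table places on chromosome 1. They are 102 of 58998 genes placed on chromosomes, and the 344 nuclear tRNA genes of the 21 other chromosomes with any were the contrast. The genes were chosen by annotation, but the set was selected on earlier results in which KAS peaks lay beside some of them, so every KAS value below is a description and carries no test.

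Both kinds of gene are transcribed by RNA polymerase III. The 5S RNA is part of the large ribosomal subunit, its genes lie in a head-to-tail array on the long arm of chromosome 1, and their promoter lies within the gene, where the zinc finger factor TFIIIA binds. Transfer RNAs carry amino acids to the ribosome, and their promoters, the A box and B box bound by TFIIIC, also lie within the gene. Many tRNA genes exist in several copies with the same mature sequence, a group called an isodecoder, and the name shows it: TRD-GTC2-1 to TRD-GTC2-5 are copies of 1 aspartate tRNA with anticodon GTC.

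The cells were dHL60, differentiated HL-60, a line from a human promyelocytic leukaemia used as a stand-in for neutrophils. For 4 pulldown libraries, dHL60 cells were given 500 nM phorbol myristate acetate (PMA) for 4 h to release neutrophil extracellular traps (NETs), then biotinylated alpha thrombin at 1 µM for 1 h, and the DNA held by thrombin was sequenced. The 4 matching input libraries were not analysed here. A single KAS library was made after the same 4 h of induction, by a label that gives no PMA dose and names no thrombin: N3-kethoxal at 5 mM for 10 min tagged guanines of single-stranded DNA, which was then captured from isolated NET DNA on streptavidin beads. The beads of both assays were blocked with yeast tRNA, and its part in the tRNA results was not tested. The KAS list held 34247 peaks, 3190 of them on chromosome 1, and pulldown replicates 1 to 4 held 886, 570, 790 and 882 peaks, with 71, 53, 63 and 71 on chromosome 1. The lists give no library totals, so depth is unknown, and the labels do not say whether replicates were separate cultures. Peak pileup is the height in reads at the summit and fold is that height over the caller's background, both the authors' own values. The KAS list had a median pileup of 10, a median fold of 5.43 and a median width of 248 bases.

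A stretch of spacer DNA of the 5S array is shown first, because it lies under a KAS peak of the array. It is the 250 bases before the RefSeq start of RHOU, a protein-coding gene whose start falls inside the array, at chr1:228644397-228644646 (GRCh38.p14, plus strand). The stretch covers positions 590 to 839 counted from the start of RNA5S16, and the 231 bases inside the KAS peak are in capitals:
RHOU upstream: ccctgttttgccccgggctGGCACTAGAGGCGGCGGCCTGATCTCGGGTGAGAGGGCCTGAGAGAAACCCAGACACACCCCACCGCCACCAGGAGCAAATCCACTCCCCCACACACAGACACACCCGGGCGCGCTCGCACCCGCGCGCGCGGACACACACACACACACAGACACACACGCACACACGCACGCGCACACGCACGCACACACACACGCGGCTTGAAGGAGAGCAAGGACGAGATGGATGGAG

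Of the bases in capitals, 27.3% were guanine, the base that kethoxal tags, and 38.1% were cytosine, which pairs with guanine of the other strand. The peak itself ran from 228644416 to 228644961 with a pileup of 39 and a fold of 6.07, and its summit lay 107 bases beyond the printed end. With the 50 bases after the start, the window held a run of 47 bases in which purines and pyrimidines alternate, mostly CA and CG. Among all 35116 RefSeq promoter windows of this length the median longest run was 7 bases, and 0.0228% of windows held one at least as long. This measure was chosen after the sequence had been read. CACACACA, sought on both strands and with overlapping matches counted, was found 8 times in this window, and 3.20% of all windows held it. The tandem pair of ATTCC, the repeat named in the title of the series, was not found in this window on either strand, and 0.0740% of all windows held it. GGGG was found 1 time on the plus strand and 4 times on the minus strand, with 89.6% of windows holding it on either strand. No A box (1.50% of windows), GTTCGANNC for the B box (291 of 35116 windows) or TATAA (20.4%) was found on either strand. These are matches of letters, and a missing match says only that the letters are not in this window.

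Every 5S gene had a KAS peak within 1 kb, and 21 of the 22 peaks lay wholly in the spacers, while 1 reached into a gene by 19 bases. The 17 genes are each 121 bases long and lie from 228610266 to 228646158, with starts 2215 to 2242 bases apart (median 2241 bases, 16 intervals). Most of each repeat is therefore spacer, and most of it lies within 1 kb of a gene. A peak at any place in the array would mostly fall in a spacer and be counted, so neither count is a result about placement. Among all 6991 genes of at most 200 bases, 4.28% had a KAS peak within 1 kb, or 3.75% without the genes described here. That background is given beside the 5S count because the genes were picked with this contrast known. In 16 of 17 copies, all but RNA5S17, a peak followed the gene on the side of higher coordinates. It began 609 to 859 bases after the gene start (median 660) and ended 979 to 1178 bases after it (median 1142). The gene table gives no strand, so sides are named by coordinate, and the start of a 5S or tRNA gene means its lower-coordinate end. The gap from gene end to peak was 489 bases at RNA5S16, the closest, and 739 bases at RNA5S14, the farthest.

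**Figure D1:**
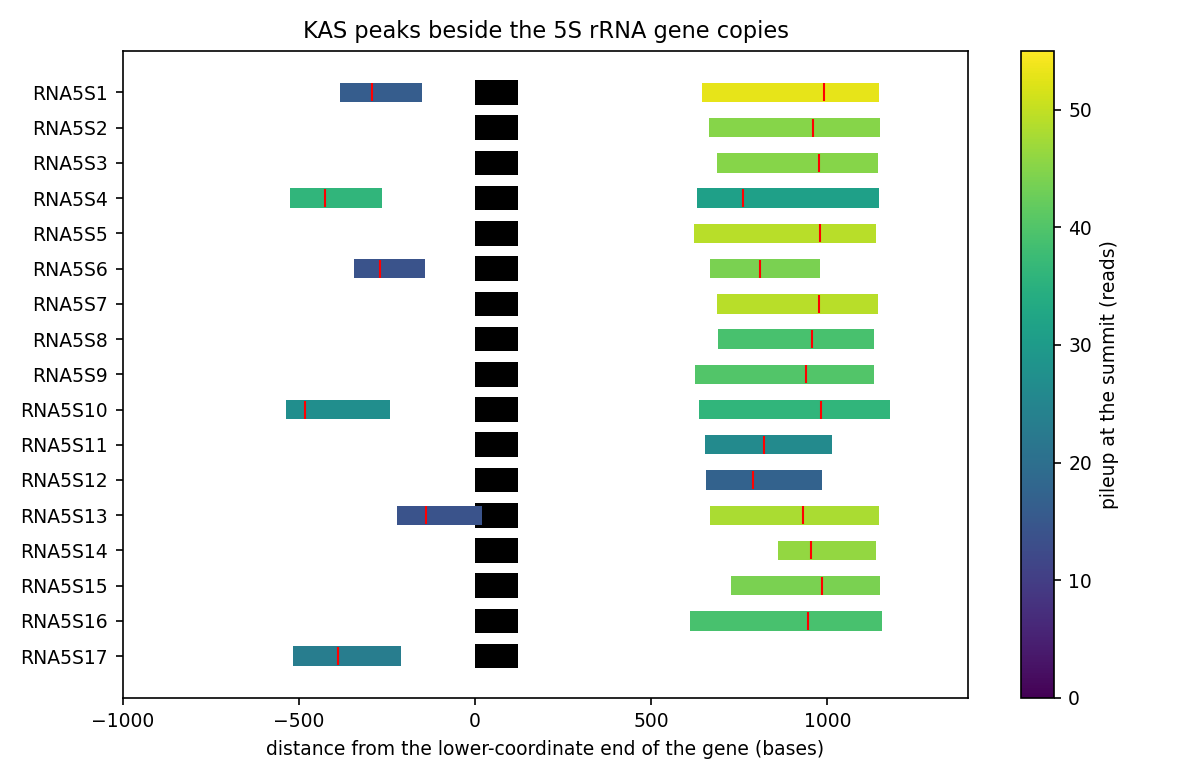
KAS peaks beside the 17 5S genes, each row 1 copy aligned at its lower-coordinate end, with the gene in black, peaks as bars coloured by pileup (reads) and summits as red ticks. In 16 copies a peak lies 609 to 1178 bases along the x axis (bases from the gene start). On the other side 6 copies have a peak, which is the taller of the pair at RNA5S4 and the only peak at RNA5S17.

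The spacer peaks kept their place in the repeat from copy to copy. Copies share sequence and may share reads, so these places are not separate observations, and the part of read placement in them was not tested. Their summits lay 760 to 990 bases from the gene start with a median of 954 bases. In 12 copies the summit fell between 932 and 990 bases, while RNA5S4 (760), RNA5S12 (789), RNA5S6 (809) and RNA5S11 (820) had it nearer the gene. Successive spacer summits were 2026 to 2460 bases apart with a median of 2224 bases, against the gene period of 2241. With 1 such peak per gene, a spacing near the period follows from the distances above and adds nothing to them. A further peak of pileup 52 lay ahead of RNA5S1 at 228608686 to 228609215, where no 5S gene is annotated. Its summit stood 2256 bases before the summit that follows RNA5S1, near 1 repeat length. Beyond the other end, RNA5SP18, a 5S pseudogene that starts at 228647912, had no KAS peak within 1 kb.

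The spacer peaks were tall for this list. Their pileup was 17 at the lowest (RNA5S12), 44 at the median and 53 at the highest (RNA5S1), and 2.44% of all KAS peaks reached 44. RNA5S5 and RNA5S7 stood at 49, RNA5S13 at 48, RNA5S14 at 46, and both RNA5S2 and RNA5S3 at 45. The low values were next to each other: RNA5S10 at 36, RNA5S11 at 26 and RNA5S12 at 17, with RNA5S4 at 31 apart from them. Every one of the 16 was above the list's median of 10. Their widths were 279 to 546 bases with a median of 467 bases.

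Fold enrichment separated the copies in another way than height did. The peaks after RNA5S1 to RNA5S9 had folds of 8.44 to 13.2 (median 10.5), and those after RNA5S10 to RNA5S16 had 5.25 to 6.78 (median 6.38), so these ranges did not overlap. The boundary was drawn after the values were seen. Pileups of the same peaks did overlap, at 31 to 53 for RNA5S1 to RNA5S9 and 17 to 48 for RNA5S10 to RNA5S16. RNA5S6 had the highest fold of the array, 13.2 at a pileup of 44, and 0.529% of KAS peaks had a fold at least as high. RNA5S3 followed with 12.95 at a pileup of 45. By contrast RNA5S14, with a pileup of 46, had a fold of 6.66, and RNA5S10 had the lowest fold of these, 5.25. Pileup divided by fold, a rough measure of the background the caller used, had a median of 4.15 in RNA5S1 to RNA5S9 and 6.86 in RNA5S10 to RNA5S16. The groups overlapped here too: RNA5S1 had 6.01, while RNA5S11 and RNA5S12, the lowest peaks of the second group, had 3.83 and 3.10.

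**Figure D2:**
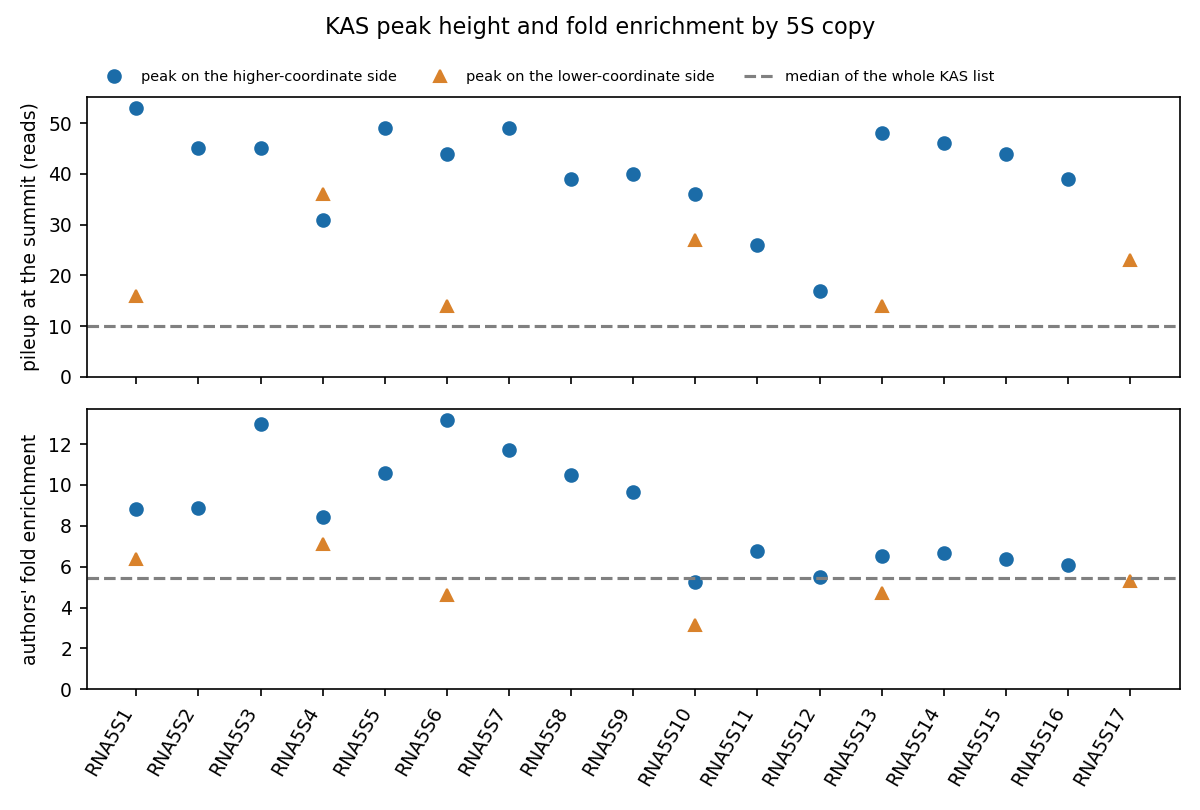
Pileup in reads (upper panel) and the authors' fold enrichment (lower panel) of the KAS peaks beside each 5S copy, with circles for the higher-coordinate side, triangles for the lower-coordinate side and a dashed line at the median of the whole list. Pileups of circles run from 17 to 53, and their folds are 8.44 or more up to RNA5S9 and 6.78 or less from RNA5S10.

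A second, smaller set of peaks lay on the lower-coordinate side of 6 copies: RNA5S1, RNA5S4, RNA5S6, RNA5S10, RNA5S13 and RNA5S17. Their pileups were 16, 36, 14, 27, 14 and 23 in that order, and their folds 6.37, 7.13, 4.60, 3.14, 4.72 and 5.29. Only at RNA5S4 was the peak on this side the taller of the pair, at 36 against 31. Summits lay at -483 to -139 bases from the gene start. The peak at RNA5S13 was the only 1 of 22 to reach a 5S gene, covering the 19 bases at its lower-coordinate end. RNA5S17, the last copy, lies within the spans of RHOU and of the pseudogene DUSP5P1, and this was its only peak within 1 kb.

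Of the 85 chromosome 1 tRNA genes, 24 had a KAS peak within 1 kb (28.2%, exact Clopper-Pearson 95% interval 19.0 to 39), and 23 of those 24 lay in a single locus. Intervals cover counting error only, and neighbouring genes share peaks, so they are too narrow. The locus, in which tRNA genes at most 10 kb apart were joined, holds 24 genes from 161440171 to 161480636. The 24th is TRG-GCC4-1, a glycine tRNA gene at the far end, whose nearest peak was 8579 bases away. Outside the locus 1 of 61 genes (1.64%) had a peak, no more than the 4.41% of other short genes of chromosome 1: TRG-CCC5-1, also a glycine tRNA gene, at chr1:16727285-16727355, with a pileup of 15 and a fold of 3.76 at a gap of 656 bases. With joined genes counted as loci, 2 of 49 chromosome 1 loci had a peak.

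**Figure D3:**
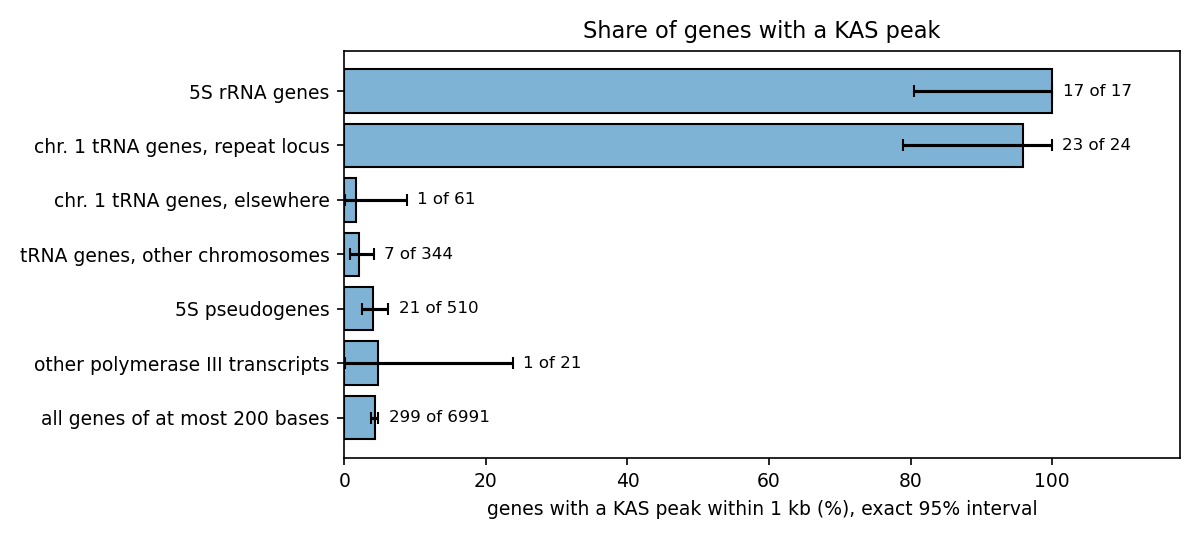
Percent of genes with a KAS peak within 1 kb, by gene group, with exact 95% intervals as error bars and counts beside the bars. The 5S genes had 17 of 17 and the tRNA genes of the repeat locus 23 of 24. The tRNA genes elsewhere had 1 of 61 and 7 of 344, the 5S pseudogenes 21 of 510 and all short genes 299 of 6991. The locus was set apart because it holds the peaks, and the 5S genes were picked with earlier results known, so the contrast is no test. Neighbouring genes share peaks, so the intervals are too narrow.

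The locus is built of repeats like the 5S array, with a longer period. Its core is a unit with genes for glutamate (TRE-CTC1), glycine (TRG-TCC2), aspartate (TRD-GTC2), leucine (TRL-CAG1) and a second glycine tRNA (TRG-GCC1), in order of coordinate. As for the 5S genes no strand is given, so ahead and past mean lower and higher coordinates, not the direction of transcription. The 5 aspartate genes start 7381 to 7418 bases apart. The first unit has TRG-TCC4-1 as its only gene ahead of the aspartate gene, and the last has no TRG-GCC1 copy. Across the locus there were 22 KAS peaks with pileups of 16 to 46 (median 29), folds of 3.55 to 7.94 (median 5.67) and widths of 200 to 691 bases (median 387). All 22 were above the list's median pileup of 10, but 12 of 22 were above its median fold of 5.43.

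Peaks recurred at the same places of the unit, mostly between genes, where most bases of the unit lie. Units may also share reads, so the peaks of different units are not separate observations. The sites below were marked out after the summits were seen. Past the leucine gene a peak was found in 5 of 5 units, with summits 1080 to 1233 bases from the start of the aspartate gene and pileups of 25, 41, 31, 40 and 31 in units 1 to 5. Between the aspartate and leucine genes all 5 units also had a peak, with pileups of 16, 40, 27, 32 and 29, and here the summits were more spread, at 201 to 595 bases. Unit 1 was the low one at both sites, and unit 2 the high one.

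Ahead of the glutamate gene, units 2, 3 and 4 had peaks whose summits fell within 3 bases of each other, at -1165 to -1162 bases from the aspartate gene start. Their pileups were 24, 26 and 23. Past the TRG-GCC1 gene a near site had peaks in units 1, 2 and 4, with pileups of 37, 31 and 25. A far site there had peaks in units 1 to 4, with pileups of 29, 46, 25 and 39. The 46 in unit 2, after TRG-GCC1-2, was the tallest peak of the locus. Between TRG-TCC2 and the aspartate gene only units 3 and 5 had a peak, at 16 and 26.

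**Figure D4:**
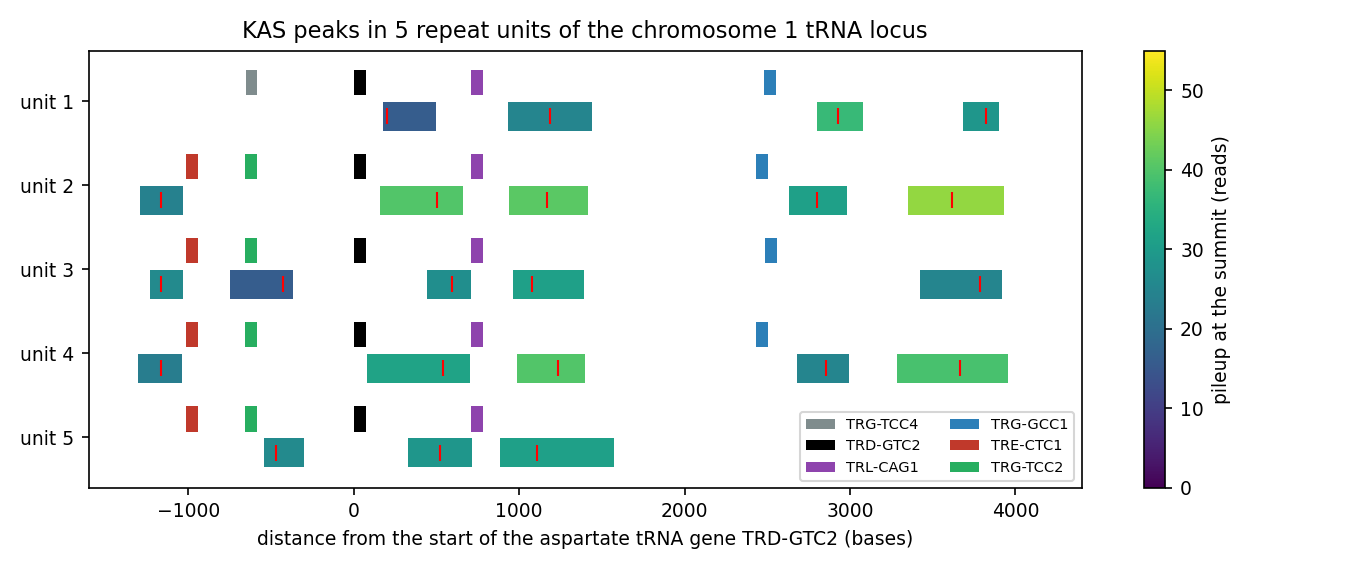
The 5 repeat units of the chromosome 1 tRNA locus aligned at the lower-coordinate end of the aspartate gene TRD-GTC2, with tRNA genes as small boxes above and KAS peaks below, coloured by pileup (reads), with summits as red ticks. Peaks stand in the same gaps in successive units, such as 1080 to 1233 bases on the x axis in all 5, and 3 of 22 overlap a tRNA gene.

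By the tallest peak within 1 kb, the chromosome 1 tRNA genes ran from TRG-GCC1-2 at 46, TRD-GTC2-2 and TRL-CAG1-2 at 41, and TRG-TCC2-2, TRD-GTC2-4 and TRL-CAG1-4 at 40, to TRG-GCC1-4 at 39, TRG-GCC1-1 at 37 and TRG-TCC2-4 at 32. TRD-GTC2-3, TRL-CAG1-3, TRD-GTC2-5 and TRL-CAG1-5 were tied behind them at 31. Neighbours often share 1 peak, so these are not separate measurements. A few peaks also touched the tRNA genes themselves. A peak overlapped 3 of 85 chromosome 1 genes (3.53%): all 72 bases of TRG-TCC2-3, 1 base of TRL-CAG1-3 and 9 bases of TRL-CAG1-5. All 3 lie in the repeat locus, where they are 3 of 24 genes (12.5%). The closest approaches without contact were 8 bases at TRD-GTC2-4 and 9 bases at TRL-CAG1-4, both from the same peak. Among all genes of at most 200 bases a lower share, 0.229%, had a peak over the gene, and the difference was not tested. Without the 5S and chromosome 1 tRNA genes that share was 0.174%.

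Of the 38 genes whose isodecoder has a copy in the locus, the 24 inside include 23 with a peak, and 0 of the 14 elsewhere had one. With 4.28% of all short genes near a peak, 0 of 14 is near the background and is not a result about those copies, nor are the smaller counts that follow. Of the 11 TRD-GTC2 genes, 5 of 5 inside had a peak and 0 of 6 on other chromosomes. For TRE-CTC1 the counts were 4 of 4 inside and 0 of 3 elsewhere. For TRL-CAG1 they were 5 of 5 and 0 of 2, and for TRG-TCC2 4 of 4 and 0 of 2. Some of these lie near: TRL-CAG1-6 and TRG-TCC2-6, on the same arm at 161530342 and 161531113, were 22213 and 22984 bases from the nearest peak. TRE-CTC1-1 and TRG-TCC2-1, neighbours at 146035692 and 146037061, were 23644 and 25013 bases away.

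The counts by amino acid follow the locus, which holds every chromosome 1 tRNA gene with a peak but TRG-CCC5-1: peaks were found at 5 of 5 aspartate, 5 of 8 leucine, 10 of 18 glycine and 4 of 9 glutamate tRNA genes of chromosome 1. They were found at none of the 17 asparagine genes, 7 valine genes, 5 glutamine genes, 5 lysine genes or 4 histidine genes, counts too small to read against the 4.28% of all short genes. At the 1 kb limit, the gene just inside was TRG-GCC1-3, with a peak of pileup 25 at 869 bases. Just outside was TRN-GTT5-1, an asparagine tRNA gene, with a peak of pileup 9 and fold 4.72 at 1727 bases.

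On other chromosomes 7 of 344 tRNA genes had a KAS peak within 1 kb (2.03%, exact 95% interval 0.822 to 4.15), which is no more than the 4.28% of all short genes, and the pileups were 8 to 11. Of the 18 tRNA genes of chromosome 5, 4 had one: TRA-TGC3-1 (alanine) with a pileup of 11, TRV-CAC1-4 (valine) and TRL-AAG1-3 (leucine), which share a peak of 9, and TRK-CTT2-2 (lysine) with 8. TRH-GTG1-5 (histidine) on chromosome 6, TRS-TGA1-1 (serine) on chromosome 10 and TRL-CAA5-1 (leucine) on chromosome 11 each had 9. The 6 peaks had folds of 4.66 to 6.53 and widths of 200 to 313 bases, and none reached the lowest pileup of the chromosome 1 locus, 16. None overlapped a tRNA gene. Chromosome 6, with 154 tRNA genes in all, had the 1 gene named.

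Pileup divided by fold, the rough measure of the caller's background, was also higher in the arrays than at the median of the list. The whole list ran from 1.53 to 93.6, and peaks of equal height were not compared. The values are therefore not shown to be particular to the arrays. Its median was 4.35 over the 23 peaks of the 5S array, 5.32 over the 22 of the tRNA locus and 1.74 over the whole list. Over the 6 low peaks beside tRNA genes of other chromosomes it was 1.70. Peaks were also dense: the 100 kb window that holds the 5S array had 23 KAS peaks and the one that holds the tRNA locus had 22. The median window with any peak had 2, and of 14189 such windows 38 had at least 23. Copies of a repeat share sequence, and the sources used here do not say how reads matching several copies were placed. The values of single copies are therefore uncertain. The part of copy number and read placement in these heights, and in the recurrence of peak positions from copy to copy, was not tested.

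No pulldown list had a peak within 1 kb of any of the 102 genes, so all 4 replicates gave 0 of 17 5S genes and 0 of 85 tRNA genes. The 344 tRNA genes of other chromosomes also gave 0 in each list. Over all 58998 placed genes, 22 (0.0373%) had a pulldown peak of any list within 1 kb. Counted by list, 7, 8, 15 and 16 genes had one in replicates 1 to 4. A count of 0 among 102 genes is therefore not a result about these genes. The nearest pulldown peak to the 5S array was 4.60 Mb before RNA5S1 in replicate 1 and 4.59 Mb before it in replicates 2, 3 and 4, and no list had a peak beyond the array. For the tRNA locus the nearest peak was 18.2, 17.3, 18.2 and 18.2 Mb away. The closest approach to any chromosome 1 tRNA gene was 279 kb, at TRN-GTT3-1 in replicate 2. In replicates 1, 3 and 4 it was TRQ-CTG4-2, a glutamine tRNA gene, at 424, 416 and 416 kb.

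Other genes tied to the polymerase III system were counted too. Their observed shares with a KAS peak were near or below the background, with wide intervals in the smaller groups. Of 510 annotated 5S pseudogenes, which are scattered 5S-like sequences, 21 had a peak within 1 kb (4.12%), close to the 4.28% of all short genes. On chromosome 1 it was 2 of 51, RNA5SP77 with a pileup of 7 and RNA5SP19, ahead of the array, with 10. The tallest peak at any 5S pseudogene had a pileup of 22, at RNA5SP453. Among 21 other polymerase III transcripts, such as the U6, 7SK, 7SL, Y and vault RNAs, 1 had a peak within 1 kb (4.76%), also close to the share of all short genes. It was BCYRN1, the BC200 RNA gene, with a pileup of 9 and a fold of 5.62.

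Of 31 protein-coding genes for polymerase III, its factors and 5S RNA partners, 9 had a peak in the gene or within 1 kb (29.0%), against 37.7% of all 19879 protein-coding genes. Among them were the polymerase subunit genes POLR3A, POLR3B, POLR3C, POLR3K and CRCP, the TFIIIC genes GTF3C1 and GTF3C2, and BRF1 of TFIIIB, with pileups of 7 to 13. GTF3A, which encodes TFIIIA, and RPL5 and RPL11, whose proteins bind 5S RNA, had none.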

How the data were processed

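Peak lists of 1 KAS library and 4 thrombin pulldown libraries were analysed, with groups and replicate numbers from the sample titles. Per the submitters' processing notes the build was GRCh38.p13, and MACS2 2.2.7.1, BWA, bedtools 2.30.0, Picard 2.27.4 and SAMtools 1.6 were used. Their roles, the control library and settings are not given in the sources used here. The lists are in the layout of a MACS2 peak table, 1 per library. The deposited pileup signal is a height in reads, never compared here between libraries. The deposited fold is a ratio over the authors' background, and the −log10 p and −log10 q columns, also as deposited, only describe each list's limit, a smallest −log10 q of 2.00 to 2.01. KAS peak numbers begin at 1951 and pulldown numbers at 195 to 259, and lower-numbered peaks were not analysed here.

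Genes came from a RefSeq table of GRCh38.p14, a later patch of the peaks' assembly with the same chromosome positions. The table gives genes of extra scaffolds a chromosome name with scaffold positions, and 718 of these, among them 13 tRNA genes named to chromosome 1, were left out. The placement was checked against 35116 promoter windows, of which 35085 lay at their gene and 31 were on the Y copy of a region shared with X. A gene had a peak when any base of the peak lay in the gene or within 1 kb. For a gene with several peaks, the tallest was used. Sequences are RefSeq's. The promoter table matched 0 of the 102 genes, so planned promoter motifs were sought in the 1 window that lies under a peak of the 5S array.

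No hypothesis was tested, since there is 1 KAS library. Members and lists were chosen with earlier results of these data known. The named genes were fixed by rule: all 5S genes, tRNA genes under a peak, the 10 tallest on chromosome 1, the 5 tallest elsewhere with ties, and list genes with a peak, except for an item that is not reported here. Genes named for the limits, isodecoders or distances were added after their values were seen. Python 3.11.15, NumPy 2.4.6, pandas 2.3.3, SciPy 1.17.1 and matplotlib 3.10.9 were used. A second count with bedtools 2.31.1 also found 17, 24, 7 and 299 genes. In simulated data 200 of 200 peaks planted within 1 kb of short genes were found, and 0 of 200 beyond 1 kb were counted (5146 genes). Alternatives changed the distance, the overlap rule, the KAS peaks used, the counting of copies and the pulldown replicates.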

Additional observations from a re-analysis of the deposited data

Results flagged for a closer look

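A library far from the other 3 pulldown replicates was looked for in 7 measures by Dixon's gap ratio at the 95% level. Of these, 3 passed, where chance flags about 1 in 20 groups. That rate is for separate measures, and some of the 7 share genes and peaks, so no library is called deviant from this count. In replicate 1 the nearest pulldown peak to the 5S array lay 4596 kb away, against 4594 kb in each of the others. In replicate 2 the nearest pulldown peak to any chromosome 1 tRNA gene lay 279 kb away, against 416 to 424 kb. Also in replicate 2, the nearest peak to the chromosome 1 tRNA locus lay 17299.7 kb away, against 18164 to 18173 kb in the others. Both distances in replicate 2 are to the same pulldown peak, so they count as 1 observation and not as separate measures.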

How the results depend on the processing

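Of 27 alternatives, 11 could not differ from the reported value by their construction and say nothing about stability. Of the other 16, 10 stayed within 1.5 times the reported count or within the counting interval of the reported median pileup, and 6 did not. When the peak had to overlap the gene, 1 of 17 5S genes, 3 of 85 chromosome 1 tRNA genes and 0 of 344 tRNA genes of other chromosomes had a KAS peak. Within 5 kb the counts were 17, 30 and 35, and 14.8% of all short genes then had one, against 10.2% of the tRNA genes of other chromosomes. When KAS peaks in the lower 50% by fold were dropped, 15 5S genes, 17 chromosome 1 tRNA genes and 4 tRNA genes of other chromosomes had one. With genes within 10 kb counted as 1 locus, 2 chromosome 1 loci and 5 of 167 loci elsewhere had one. The median of the tallest pileup per gene was 36, and 31 with the mean of a gene's peaks. The interval used for it, 25.2 to 49.8, treats the median as a single count of reads. It does not measure the spread over genes, so staying within it says little about stability. Pulldown counts were also 0 within 5 kb. A count of 0 cannot rise when the gene itself must be overlapped or 1 replicate is left out (0 to 0). No paired analysis was possible because the counts of genes come from no test, and no values of the inputs that share replicate numbers with the pulldowns were used here. Depth is unknown for all 5 lists, so a gene without a peak had none that passed the authors' limit, which is not absence of single-stranded DNA.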

Other observations

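Other short RNA genes were counted in the same way as a description. Of 149 spliceosomal and related snRNA genes, 25 (16.8%) had a KAS peak within 1 kb, of 1193 snoRNA genes, which guide RNA modification, 26 (2.18%) did, and of 1913 miRNA genes 65 (3.40%) did. No snRNA or snoRNA gene was overlapped by a peak, and 9 miRNA genes were. Of all 299 short genes with a KAS peak within 1 kb, 41 were the 5S and chromosome 1 tRNA genes described above. Without those genes, the share was 3.75% over the genome and 4.41% (28 of 635) on chromosome 1.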
